A study of Mus musculus with 12 samples.

Results

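Natural killer (NK) cells and cytotoxic T cells recognise target cells through surface receptors and kill them with the contents of secretory granules. The group described here holds 10 mouse genes of that machinery: the receptors Klra17, Klrd1, Klrk1, Klrb1c, Klrg1 and Ncr1, and the granule genes Gzma, Gzmb, Prf1 and Nkg7. A gene was taken from the array when a probe set (the group of oligonucleotides that reports one transcript) carried that gene's symbol, or an older synonym, as its only symbol, and it was represented by its brightest probe set on average. Of the 10 genes, 9 had such a probe set, among 18193 genes of the array that had one. Klrb1c had only a probe set shared with its neighbour Klrb1b. A probe set was tested when its signal was above the median of its array on at least 3 of the 12 arrays. That left 8 of the 10 genes among 11859 genes tested, because Ncr1 was above the median on 0 arrays.

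The study measured total RNA of whole mouse lung on Affymetrix 3′ expression arrays 8 h after an operation. Cecal ligation and puncture (CLP) opens the gut and causes sepsis, and sham surgery was the comparison, in mice aged 8 to 10 weeks. The 4 groups had 3 arrays each: knockout after CLP (KO CLP), knockout after sham surgery (KO sham), wild type after CLP (WT CLP) and wild type after sham surgery (WT sham). The knockout is labelled as lacking PPTA, the precursor of the neuropeptide substance P, whose gene is Tac1; wild-type mice are labelled Balb/c and the labels give no strain for the knockout, so that genotype and strain cannot be told apart. Labels and design text do not say whether arrays of a group are separate animals, and the p-values then measure only the spread between these arrays, which may be technical.

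The signal of Tac1 went against the labels. It was 442, 337 and 462 on the arrays labelled KO CLP and 379, 441 and 530 on those labelled KO sham, against 16.1, 3.95 and 12.4 on WT CLP arrays and 5.25, 8.34 and 2.80 on WT sham arrays. A second Tac1 probe set stayed low in every group, at 5.12 to 8.08 on KO CLP, 4.85 to 10.3 on KO sham, 3.27 to 7.78 on WT CLP and 1.26 to 16.0 on WT sham arrays. Where either probe set lies relative to the deletion is not stated by the labels, and the knockout arrays are called KO below only as labelled. The class II gene H2-Ea, which some mouse strains do not express, had signals of 57.0 to 83.0 on the 6 KO arrays and 2342 to 2919 on the 6 WT arrays with its brightest probe set. Sftpc, the surfactant protein of alveolar type 2 cells and a marker of lung, lay between 8797 and 11412 on all 12 arrays. KO sham replicate 3 stood apart, with 646 probe sets above and 758 below both other arrays of its group by 2-fold or more, where no WT array had more than 33 and 78. KO CLP replicate 3 followed with 202 above and 471 below, and KO CLP replicate 1 with 92 and 329. KO sham replicate 3 also had the highest signal in its group of Cxcr2, a neutrophil receptor (216), and of Ptprc, the common leukocyte antigen CD45 (1972).

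In mice many NK receptors are C-type lectin-like proteins encoded side by side in the NK gene complex on chromosome 6, where gene number and sequence differ between inbred strains. Receptors with activating or inhibitory signals set the threshold at which the cell releases its granules. Perforin then opens the target cell membrane and granzymes, serine proteases, enter and start cell death. Cytotoxic lymphocytes can store granzyme protein before infection, and Gzmb is the granzyme gene best known for induction by activation and cytokines. The promoters of the granule genes are known targets of Runx factors and of the T-box factors T-bet and Eomes.

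RefSeq promoter windows (assembly GRCm38.p6; 250 bases before to 50 bases after the gene start) were at hand for 8 of the 10 genes. Shown are those of the 4 granule genes and of Klrk1. Gzma, Gzmb and Prf1, each by its brightest probe set, varied together within groups. A second Prf1 probe set did not follow Gzma and Gzmb in the KO groups. Klrk1 was the receptor that differed between the genotypes after both operations. Capitals mark the Runx motif TGTGGT, or ACCACA on the other strand, and the T-box motif TCACAC, or GTGTGA on the other strand. Each is written 5′ to 3′ on the strand of the gene: Gzmb from chr14:56262285-56262584 (minus strand), Gzma from chr13:113100932-113101231 (minus), Prf1 from chr10:61297586-61297885 (plus), Nkg7 from chr7:43436888-43437187 (plus) and Klrk1 from chr6:129623815-129624114 (minus).
Gzmb: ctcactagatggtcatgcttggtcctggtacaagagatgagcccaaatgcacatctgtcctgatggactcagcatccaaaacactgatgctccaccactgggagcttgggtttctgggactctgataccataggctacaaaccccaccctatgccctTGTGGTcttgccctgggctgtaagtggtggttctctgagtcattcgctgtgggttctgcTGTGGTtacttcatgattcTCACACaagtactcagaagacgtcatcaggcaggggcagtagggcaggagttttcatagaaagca
Gzma: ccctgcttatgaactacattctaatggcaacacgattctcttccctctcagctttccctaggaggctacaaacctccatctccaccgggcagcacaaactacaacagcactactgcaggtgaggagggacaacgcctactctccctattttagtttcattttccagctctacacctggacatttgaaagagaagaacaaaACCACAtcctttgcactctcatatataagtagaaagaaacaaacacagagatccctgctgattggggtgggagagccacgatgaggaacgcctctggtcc
Prf1: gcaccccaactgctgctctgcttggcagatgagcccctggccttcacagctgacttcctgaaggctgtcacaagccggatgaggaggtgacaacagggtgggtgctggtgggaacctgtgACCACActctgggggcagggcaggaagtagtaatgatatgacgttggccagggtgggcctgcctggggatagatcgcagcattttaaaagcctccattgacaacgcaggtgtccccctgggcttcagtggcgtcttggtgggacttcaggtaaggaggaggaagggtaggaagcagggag
Nkg7: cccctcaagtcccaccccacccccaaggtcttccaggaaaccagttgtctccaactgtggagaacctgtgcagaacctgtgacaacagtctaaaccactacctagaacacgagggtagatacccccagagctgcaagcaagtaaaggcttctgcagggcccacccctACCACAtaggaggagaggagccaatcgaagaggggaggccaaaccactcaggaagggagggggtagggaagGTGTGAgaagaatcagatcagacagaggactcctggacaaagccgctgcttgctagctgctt
Klrk1: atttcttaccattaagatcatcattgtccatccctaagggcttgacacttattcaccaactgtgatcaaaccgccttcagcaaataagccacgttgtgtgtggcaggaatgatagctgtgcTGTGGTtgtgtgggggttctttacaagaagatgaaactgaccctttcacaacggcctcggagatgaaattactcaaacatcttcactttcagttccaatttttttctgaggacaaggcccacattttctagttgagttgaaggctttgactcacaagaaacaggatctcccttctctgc
The Runx letters occurred in 7 of the 8 windows, Klra17 being the exception, and in 16.8% of 32851 windows of the same length over all genes. Gzmb had 2 Runx matches. T-box letters stood in 3 of the 8 windows, those of Gzmb, Nkg7 and Ncr1, against 14.5% of all windows. The Ets core GGAA or TTCC was in 6 of the 8 windows and in 96% of all windows, so that its presence separates few promoters. None of the matches printed overlaps another, and a match describes letters in this window only. The windows are those of the reference assembly, and the sequences of the mice used were not compared with them.

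Gzmb, the granzyme that cleaves caspases in the target cell, was the 1 granule gene called in any comparison. Its signal was 243, 471 and 413 on KO CLP arrays, against 132, 99.3 and 57.3 on KO sham arrays. All KO CLP arrays lay above all KO sham arrays, and Gzmb rose 3.86-fold, a log2 difference of 1.95 ± 0.31 (SE, n = 3 arrays in each group; adjusted p = 0.00102, limma, Benjamini-Hochberg over all probe sets tested). In wild type it was 217, 132 and 228 on CLP arrays and 92.6, 66.0 and 77.7 on sham arrays. The WT arrays did not overlap either, and the log2 difference of 1.22 ± 0.31 did not pass (n = 3 each; adjusted p = 0.117, limma). It passed in WT when the spread was estimated from the WT arrays alone (adjusted p = 0.00408) and when KO sham replicate 3 was left out (adjusted p = 0.0332). Both genotypes thus had higher Gzmb on every CLP array, and the difference between the responses was 0.73 on the log2 scale with a 95% interval of -0.23 to 1.68 (adjusted p = 0.354, limma interaction).

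After CLP, Gzmb was also higher in KO than in WT lungs, by 0.94 ± 0.31 on the log2 scale (adjusted p = 0.0390, limma; 3 of 3 KO CLP arrays above all 3 WT CLP arrays). That call was lost without any one of 6 arrays, and the difference was 0.69 without WT CLP replicate 2 and 0.75 without KO CLP replicate 2. After sham surgery the genotypes overlapped, with a difference of 0.21 (adjusted p = 0.739). From high to low the order of levels was KO CLP, WT CLP, KO sham and WT sham, and KO sham and WT sham did not differ beyond their spread.

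Gzma, a granzyme with trypsin-like cleavage, was measured far above the array medians and passed in no comparison. Signals were 423, 578 and 619 on KO CLP arrays and 605, 394 and 337 on KO sham arrays, with 683, 454 and 545 on WT CLP arrays and 511, 431 and 426 on WT sham arrays. Every pair of groups overlapped. The difference after CLP was 0.30 on the log2 scale in KO (95% interval -0.16 to 0.77) and 0.28 in WT (-0.18 to 0.75), so that a rise like that of Gzmb in KO lay outside the interval of Gzma in both genotypes.

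Prf1, which encodes the pore former perforin, had signals of 34.0, 43.5 and 48.0 on KO CLP arrays and 39.5, 31.8 and 32.5 on KO sham arrays, with 47.4, 31.9 and 41.2 on WT CLP arrays and 38.9, 35.3 and 41.2 on WT sham arrays. These ranges overlapped throughout, and its differences after CLP were 0.24 in KO and 0.04 in WT on the log2 scale, neither past the threshold. A second Prf1 probe set read 22.1 to 43.3 over the 12 arrays and was not called in any comparison. Nkg7, a membrane protein of cytotoxic granules needed for their release in mouse lymphocytes, read 68.5, 80.0 and 88.2 on KO CLP arrays and 66.1, 61.5 and 61.8 on KO sham arrays. Its KO arrays did not overlap, but the log2 difference of 0.30 ± 0.17 was not called (n = 3 each; adjusted p = 0.201, limma). With arrays centred on their medians the difference was 0.54 and passed (adjusted p = 0.0303). In WT lungs Nkg7 read 95.2, 70.5 and 65.3 after CLP and 74.9, 67.03 and 60.8 after sham surgery, and the groups overlapped.

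**Figure D1:**
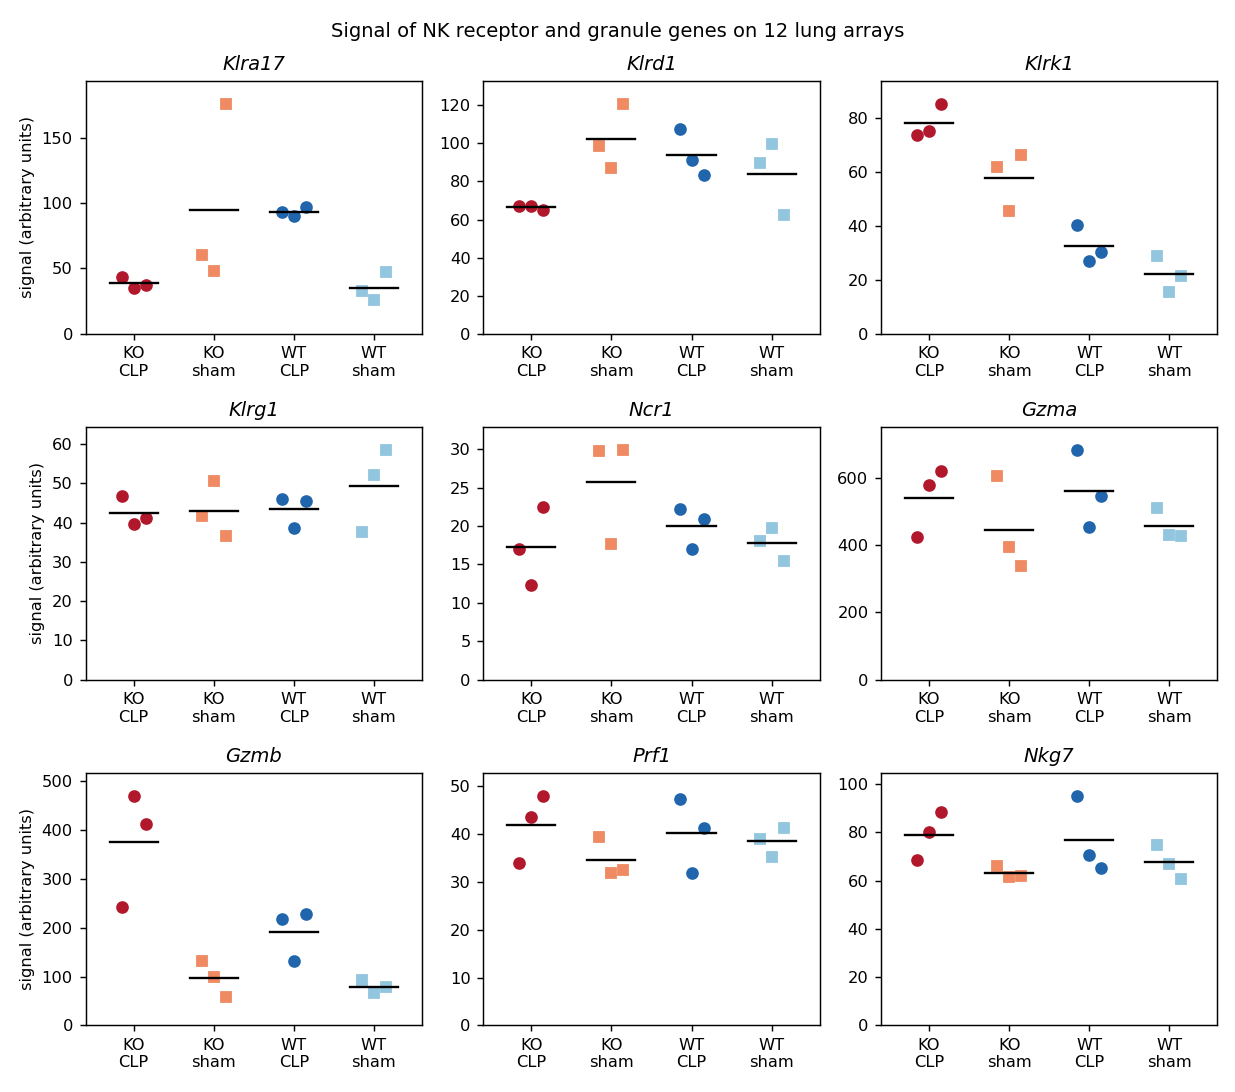
Signal (arbitrary units, linear axis from 0) of the 9 genes with a probe set of their own; each point is an array and each line the mean of 3 arrays of a group. Gzmb is high on KO CLP arrays (243 to 471) and Klrk1 is higher on all KO arrays than on all WT arrays, while Gzma, Prf1 and Klrg1 overlap between groups.

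Klrk1 encodes NKG2D, an activating receptor for stress-induced ligands. It read 73.9, 75.2 and 85.3 on KO CLP arrays and 62.1, 45.5 and 66.3 on KO sham arrays, against 40.5, 26.9 and 30.5 on WT CLP arrays and 29.0, 15.6 and 21.5 on WT sham arrays. All 6 KO arrays lay above all 6 WT arrays. Klrk1 was higher in KO than in WT by 1.19 ± 0.24 on the log2 scale after CLP (adjusted p = 0.00298) and by 1.28 ± 0.24 after sham surgery (adjusted p = 0.00470; limma, n = 3 in each group). Both calls held without each array in turn. Klrk1 was above the array median on 7 arrays, all 6 KO arrays and WT CLP replicate 1, so that it passed the filter through the group where it is high and the calls are read as such. Under a filter of 9 arrays it was not tested, and with no filter it was called after both operations (adjusted p = 0.00637 after CLP). Its differences after CLP were 0.42 in KO and 0.52 in WT on the log2 scale, neither past the threshold (adjusted p = 0.194 and 0.582), and from high to low the order of levels was KO CLP, KO sham, WT CLP and WT sham, with arrays that overlapped between the WT groups alone.

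Klra17 encodes Ly49Q, an inhibitory receptor of the Ly49 family that is known from plasmacytoid dendritic cells and myeloid cells of the mouse more than from NK cells. Its signal was 43.6, 35.1 and 37.3 on KO CLP arrays, against 60.5, 48.2 and 175.6 on KO sham arrays. The wild type ran the other way, with 92.8, 90.4 and 96.9 on CLP arrays and 33.0, 25.5 and 47.1 on sham arrays. In neither genotype did CLP and sham arrays overlap: all 3 KO CLP arrays were below, and all 3 WT CLP arrays above, their sham arrays. Taken singly, the log2 differences of -0.999 ± 0.37 in KO and 1.36 ± 0.37 in WT missed the threshold (adjusted p = 0.0580 and 0.149, limma, n = 3 in each group). The difference between them did pass, at -2.36 ± 0.52 on the log2 scale (adjusted p = 0.0311, limma interaction over all 12 arrays).

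The high KO sham value of Klra17 came from replicate 3, the array that stood apart. Without it the KO difference was -0.45 (adjusted p = 0.144), and the interaction was -1.81 with an adjusted p of 0.00422. The WT difference then passed (adjusted p = 0.00444, limma). It also passed with array weights (0.00110) and with only the WT groups compared (0.00217). It missed the threshold in 11 of 12 runs without single arrays and in 8 of 10 other alternatives. The KO difference passed only without KO sham replicate 2 (0.0229) and with the replicate block (0.0355). Leaving out any one WT array or KO CLP replicate 2 raised the adjusted p of the interaction above 0.05, at most to 0.0840, with differences of -2.57 to -2.17. After CLP, Klra17 was lower in KO than in WT by -1.20 ± 0.37 on the log2 scale (adjusted p = 0.0268), a call lost without any one of 5 arrays. After sham surgery it stood 1.16 higher in KO, with all KO arrays above all WT arrays, and this was not called (adjusted p = 0.0746); without KO sham replicate 3 the difference was 0.61 (adjusted p = 0.126).

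Klrd1 encodes CD94, which pairs with NKG2 proteins to bind the non-classical class I molecule Qa-1. On KO CLP arrays it read 67.3, 67.3 and 65.0, against 98.5, 87.2 and 121 on KO sham arrays. It fell by 0.58 ± 0.19 on the log2 scale in KO (adjusted p = 0.0329, limma, n = 3 each), with all KO CLP arrays below all KO sham arrays. That call was lost without each single KO array other than KO sham replicate 2 (-0.60 to -0.46), and centring arrays on their medians gave -0.34 (adjusted p = 0.160). In WT lungs Klrd1 read 107, 91.4 and 83.6 after CLP and 89.8, 99.6 and 62.6 after sham surgery, with overlap and a difference of 0.18. The interaction of -0.76 ± 0.26 was not called (adjusted p = 0.114).

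Klrg1, an inhibitory receptor that binds cadherins and marks mature NK and effector T cells, read 46.6, 39.5 and 41.1 on KO CLP arrays, 41.6, 50.6 and 36.5 on KO sham arrays, 46.1, 38.5 and 45.4 on WT CLP arrays and 37.6, 52.2 and 58.5 on WT sham arrays. All groups overlapped and no difference passed. Ncr1, the activating receptor NKp46 that marks NK cells and some innate lymphoid cells, was below the array median on all 12 arrays. Its values were 16.9, 12.4 and 22.4 on KO CLP arrays, 29.8, 17.6 and 29.9 on KO sham arrays, 22.2, 17.0 and 20.9 on WT CLP arrays and 18.0, 19.7 and 15.5 on WT sham arrays, and it was not tested. The probe set shared by Klrb1b and Klrb1c (Klrb1c encodes the NK1.1 antigen in strains that carry it) read 21.0, 27.2 and 21.7 on KO CLP arrays and 6.56, 2.71 and 12.2 on KO sham arrays, with 1.39, 2.24 and 1.17 on WT CLP arrays and 2.26, 5.75 and 2.04 on WT sham arrays. It too failed the filter and cannot be assigned to one gene.

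Counted together, the 8 genes tested gave 1 call upward (Gzmb) and 1 downward (Klrd1) for CLP against sham in KO, where 31.3% of all genes tested were called (11.4% up and 19.9% down). In WT 0 of 8 were called (limma; 3 had an unadjusted p under 0.05), where the background was 1.16%. The interaction called 1 of 8, Klra17, against 4.98% of all genes. Between genotypes, 1 of 8 (Klrk1) was called after sham surgery, where 8.76% of genes were called, and 3 of 8 (Klrk1 and Gzmb up, Klra17 down) after CLP, where 31.8% were (13% up and 18.7% down). With 8 genes these counts lie near the background shares. The median log2 difference of the 8 genes after CLP was 0.27 in KO and 0.23 in WT, beside -0.11 and -0.03 over all genes tested. Arrays of KO CLP and KO sham did not overlap for 5 of the 8 genes (38.3% of all genes), and those of WT CLP and WT sham for 2 (23.8%). KO and WT arrays did not overlap for 4 of the 8 genes after CLP (49.9% of all genes) and for 2 after sham surgery (31.3%).

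**Figure D2:**
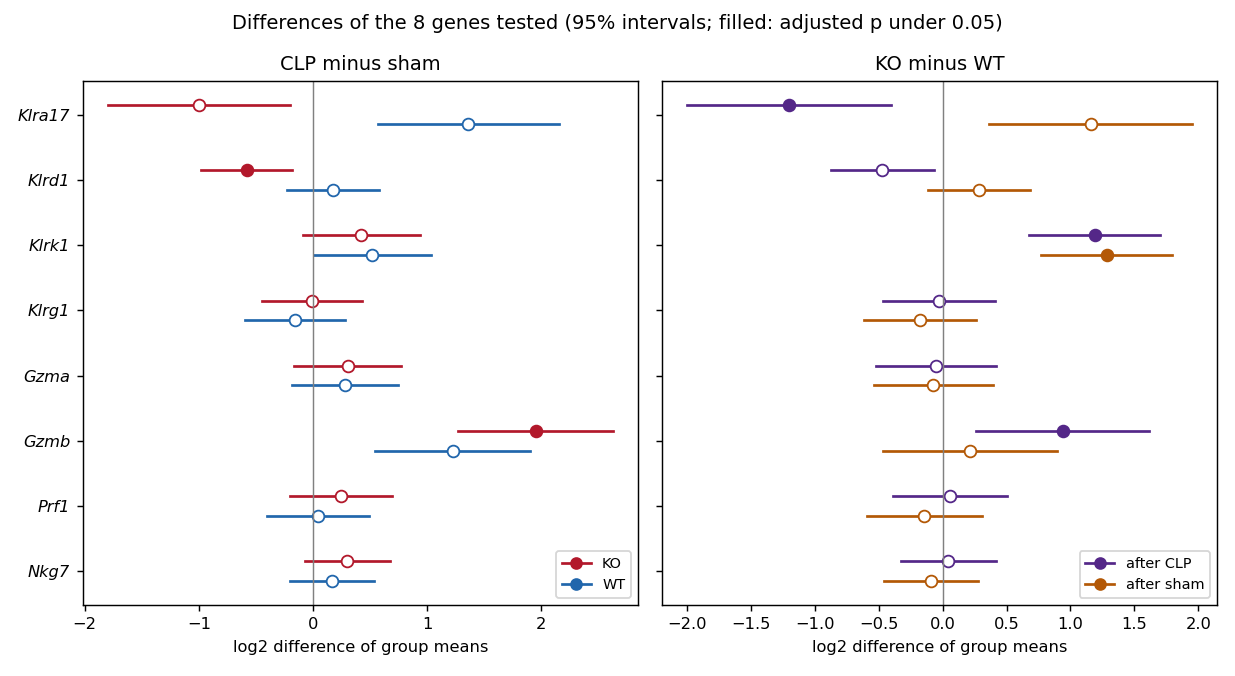
Log2 differences of group means with 95% intervals for the 8 genes tested, CLP minus sham on the left (KO above WT) and KO minus WT on the right (after CLP above after sham); filled points have an adjusted p under 0.05. Klra17 is the gene whose response lies on opposite sides of 0 in KO (-0.999) and WT (1.36) with intervals that both leave out 0.

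Gzma, Gzmb and Prf1, each by its brightest probe set, varied together among arrays of the same group, and Nkg7 less closely. When each array was expressed as its deviation from the group mean on the log2 scale, Gzma correlated with Gzmb at r = 0.88, with Prf1 at 0.84 and with Nkg7 at 0.70 over the 12 arrays. Of 11858 other genes, 0.16% had a higher r with Gzma than Gzmb had, 0.354% a higher r than Prf1, and 2.61% a higher r than Nkg7. Between Gzmb and Nkg7 r was 0.44, and 14.4% of other genes had a higher r with Gzmb. KO CLP replicate 1 and WT CLP replicate 2 were each the lowest array of their group for Gzma, Gzmb and this Prf1 probe set. The second Prf1 probe set differed: KO CLP replicate 1 was the highest of its group (43.2 against 28.0 and 27.7). KO sham replicate 3 was also the highest there (41.1 against 22.1 and 24.5), and WT CLP replicate 2 was again the lowest (37.7). Yet for Gzma both KO CLP replicate 1 and KO sham replicate 3 were the lowest of their groups. The second Prf1 probe set thus ran against Gzma in the KO groups, though its correlation with Gzma was not computed. The closeness of Prf1 rests on 1 probe set and was not shared by the other in KO. Receptors were less close to Gzma on this measure: r was 0.47 for Klrk1, 0.03 for Klrd1, -0.11 for Klrg1 and -0.44 for Klra17. Klrk1 had r = 0.59 with Prf1 and 0.59 with Nkg7, above that of Gzmb with Nkg7. These are descriptions over arrays that share their RNA and scaling, and in whole lung more cells of a type and more RNA per cell cannot be told apart.

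**Figure D3:**
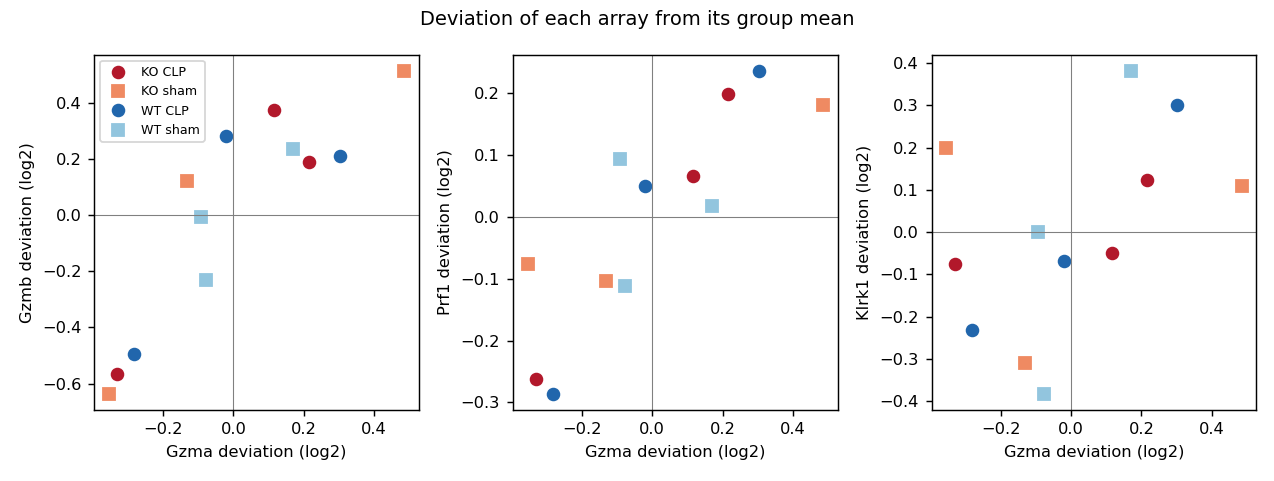
Deviation of each array from the mean of its group (log2) for Gzma on the horizontal axes against Gzmb, Prf1 and Klrk1; each point is 1 of 12 arrays, coloured by group. The points of Gzmb (r = 0.88) and of the brightest Prf1 probe set (r = 0.84) lie along a rising line. The second Prf1 probe set is not drawn. Those of Klrk1 scatter more widely (r = 0.47).

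Genes most like each member were sought by Pearson correlation over the 12 arrays, in which group differences take part. The mean profile of the 8 genes was closest to Vnn3 (r = 0.83), Gal3st2, Ube2v1, Rel, Snai1, Fam189a1, Vcam1, Tox, Ccl5 and H2ax (r = 0.78). Ccl5, a chemokine that cytotoxic lymphocytes store and release, was also among the 5 genes closest to Gzma (r = 0.86) and to Prf1 (r = 0.88). Gzmb was closest to Hcls1 (r = 0.97), an actin-binding protein of blood cells, and Litaf, Arid5a, Batf and Bcl3 followed. For Klrk1 the 5 closest held Plac8 (r = 0.95) and another gene of the NK gene complex, Klrb1b (r = 0.94).

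Along the NK gene complex, from Klrb1a to Klra2 in the RefSeq order, 34 genes had a probe set of their own and 15 were tested. After CLP, 3 of them were higher (Klrb1b, Olr1 and Klrk1) and 5 lower (BC064078, Klrb1f, Clec1a, Klra17 and Klra2) in KO than in WT, where 31.8% of all genes tested were called. After sham surgery 2 were higher (Klrb1b and Klrk1) and 4 lower (BC064078, Klrb1f, Clec2d and Klra2), where 8.76% of all genes were called. Klrb1f passed the filter through WT CLP arrays alone (40.8 to 42.6). Olr1 passed it through KO arrays alone, as no WT array exceeded 22.2. Their calls are read as such, as are those of Klrk1, Klrb1b and Klra2. Differences of both signs were thus called within the complex, with untested or uncalled genes between called genes of opposite sign. In the same direction after both operations, 5 genes were called (Klrb1b, Klrk1, BC064078, Klrb1f and Klra2). Probe sequences and strain variants were not analysed here, so that a difference in RNA level and a difference in how a strain's transcript binds the probes cannot be told apart.

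**Figure D4:**
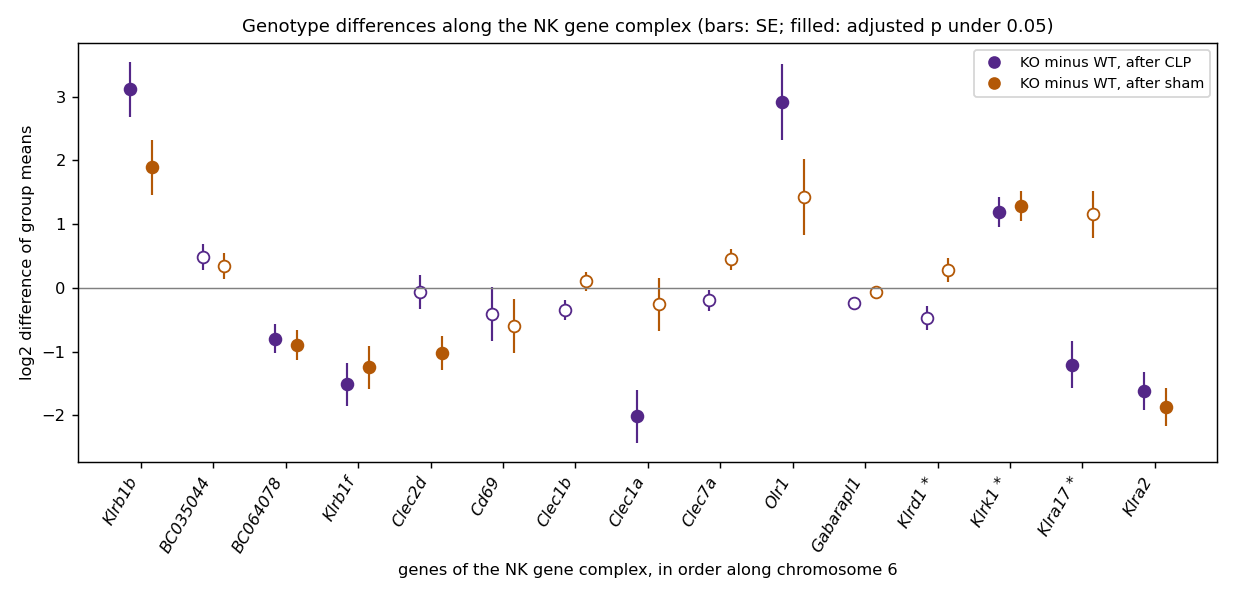
Log2 difference KO minus WT of the 15 genes tested in the NK gene complex, in order along chromosome 6 with equal spacing; bars are SE, filled points have an adjusted p under 0.05 and asterisks mark Klrd1, Klrk1 and Klra17. Klrb1b (3.12 after CLP) and Klra2 (-1.62) show the same direction after both operations, while Klra17 changes side.

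Klrb1b, an inhibitory receptor for the lectin Clec2d, read 101.7, 128 and 148 on KO CLP arrays and 56.2, 32.5 and 31.9 on KO sham arrays, against 14.7, 7.87 and 12.2 on WT CLP arrays and 14.2, 1.54 and 13.4 on WT sham arrays. It was higher in KO after CLP (3.12 ± 0.43, adjusted p = 0.000323) and after sham surgery (1.89 ± 0.43, adjusted p = 0.0175) and rose with CLP in KO (1.60 ± 0.43, adjusted p = 0.0160; limma, log2 scale, n = 3 each). All 6 WT arrays lay below their array medians, so that Klrb1b passed the filter through KO arrays alone and the size of its genotype difference depends on the constant added to the signal: with the larger constant tried it was 2.30 after CLP and 1.1 after sham surgery, both still called. Klra2, a Ly49-related receptor, ran against it, with 9.49, 9.44 and 18.7 on KO CLP arrays and 3.79, 5.96 and 6.80 on KO sham arrays, against 50.05, 38.7 and 44.2 on WT CLP arrays and 30.8, 29.6 and 26.2 on WT sham arrays. Klra16, a further Ly49 gene, read 23.5, 36.8 and 47.1 on KO CLP arrays and 115, 56.3 and 101.7 on KO sham arrays, while none of the 6 WT arrays exceeded 4.86. Klra16 likewise passed the filter through KO arrays and Klra2 through WT arrays. The probe sets of Klra16 and Klrb1b are of the array maker's classes that may bind related transcripts. Klrb1b probe sets outside these classes gave 2.62 and 4.22 for KO minus WT after CLP, both called. After sham surgery they gave 0.75 (adjusted p = 0.0672, limma) and 2.81, of which only the latter was called. The former alone among the Klrb1b probe sets passed in the interaction (1.87, adjusted p = 0.0157, limma). For the brightest probe set the interaction was 1.23 (adjusted p = 0.257). Cd69, an early activation antigen of lymphocytes and other leukocytes encoded in the same complex, rose with CLP in KO (2.27 ± 0.43, adjusted p = 0.00233) and in WT (2.09 ± 0.43, adjusted p = 0.0392). The WT call of Cd69 was lost without any one of 7 arrays and under 3 of 10 other alternatives. Among 6 tested lectin-like receptors and relatives outside the 10 genes, CLP called 3 up (Cd69, Clec2d and Klrb1b) and 1 down (Klra16) in KO, and 1 up in WT. Over all genes tested, 11.4% were called up and 19.9% down in KO, and 1.16% were called in WT. Clec2d rose in KO from a sham level below that of WT (-1.02, adjusted p = 0.0329, limma) to a level near that of WT after CLP (-0.07).

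Gene lists around the receptors and granules are read beside the background for CLP against sham given above, which was 11.4% up and 19.9% down in KO and 1.16% called in WT; the median over all genes was -0.11 in KO and -0.03 in WT. Receptor adaptors and proximal kinases carry the signal of such receptors. With CLP, 9 of 21 tested rose and 1, Plcg1, fell in KO; in WT 0 passed by limma and 8 had an unadjusted p under 0.05. The Tec kinase Txk rose in KO by 1.99 ± 0.23 (adjusted p = 0.000179), with means of 71.9 ± 17.9 on KO CLP arrays and 15.4 ± 3.46 on KO sham arrays, against 32.7 ± 3.76 on WT CLP arrays and 31.9 ± 4.10 on WT sham arrays (SD, n = 3 each). The Fc receptor gamma chain Fcer1g (2.32 ± 0.31), the adaptor Lcp2 (2.23 ± 0.28) and the kinase Syk (1.59 ± 0.22) rose with it in KO; all of these except Txk are also abundant in myeloid cells. Among 13 other surface receptors 5 rose and 2 fell in KO, the risers including Fcgr3 (1.96 ± 0.32), Itgam (1.84 ± 0.31) and Cd2 (1.37 ± 0.29), while Cx3cr1 (-1.45 ± 0.38) and Itga1 (-0.89 ± 0.21) fell; in WT 0 of 13 passed and 5 had an unadjusted p under 0.05.

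Of 11 cytokine receptors and signalling genes of NK cells, 5 rose and 2 fell with CLP in KO and 0 of 11 passed in WT by limma (1 at an unadjusted p under 0.05). Il7r (2.70 ± 0.41) and Il18rap (1.94 ± 0.35), subunits of the receptors for interleukins 7 and 18, rose, while the interleukin 18 receptor subunit Il18r1 (-0.89 ± 0.23) and the Janus kinase Tyk2 (-0.74 ± 0.17) fell. Of 10 cytokines and chemokines that activate or draw NK cells, 4 rose and 1 fell in KO and 1 rose in WT. Ccl3 rose in KO (6.0 ± 0.71) and in WT (3.44 ± 0.71, adjusted p = 0.0415), and Ccl4 (3.80 ± 0.82), Cxcl10 (3.16 ± 0.69) and Il12a (1.21 ± 0.29) rose in KO, while Cxcl12 fell (-0.77 ± 0.26). Id2, a regulator needed for NK cell and innate lymphoid development, rose in both genotypes, by 1.33 ± 0.12 in KO and 0.58 ± 0.12 in WT, and the responses differed by 0.74 ± 0.17 (adjusted p = 0.0345, limma interaction). The WT call was lost without any one of 7 arrays and under 5 of 10 other alternatives, and the interaction without any one of 9 arrays and under 5 of 9. After sham surgery Id2 was already lower in KO than in WT (-0.50 ± 0.12, adjusted p = 0.0224, limma). It was not called between the genotypes after CLP. The WT call of Ccl3 was lost without any one of 8 arrays. Of 13 transcription factors of these cells, 2 rose (Id2 and Ets1) and 1, Ikzf2, fell in KO.

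The 8 other granzyme genes with a probe set (Gzmc to Gzmg, Gzmk, Gzmm and Gzmn) all failed the filter on low signal, so that only Gzma and Gzmb could be compared. Of 19 genes of granule content, processing and release, 5 rose and 4 fell with CLP in KO and 2 rose in WT. Stx11, a membrane fusion protein needed for granule release, rose by 1.02 ± 0.19 in KO and 1.07 ± 0.19 in WT, and the granule proteoglycan Srgn by 1.0 ± 0.14 in KO. Sytl2 (-0.97 ± 0.21), Unc13d (-0.93 ± 0.26), Slc29a3 (-0.43 ± 0.15) and Lamp1 (-0.24 ± 0.06) fell in KO. Lyst, the lysosomal trafficking regulator mutated in beige mice, rose in WT (0.60 ± 0.12), and the KO response was lower by 0.91 ± 0.17 (interaction of -0.91, adjusted p = 0.0175). The WT call of Lyst was lost without any one of 7 arrays and under 1 of 10 other alternatives. Of 8 inhibitors of granzymes and death receptors, Serpinb9, the inhibitor of granzyme B, fell in KO (-0.37 ± 0.10), Serpinb1a (1.01 ± 0.26) and Cflar (0.70 ± 0.20) rose, and Mcl1 rose in WT (0.52 ± 0.11), a call lost without any one of 8 arrays. With arrays centred on their medians the KO difference of Serpinb9 was -0.12 and not called (adjusted p = 0.400). Tnf was the 1 of 3 tested death ligands and effector cytokines called, up in KO (3.34 ± 1.16, adjusted p = 0.0469), with arrays that overlapped; that call was lost without any one of 10 arrays.

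Among 8 tested ligands of NK receptors, Pvr, the ligand of Cd226 and Tigit, rose with CLP in KO by 1.14 ± 0.22, and its responses differed between genotypes by 1.47 ± 0.31 (adjusted p = 0.0269, limma interaction). Cdh2 (-0.81 ± 0.21) and Nectin2 (-0.46 ± 0.15) fell in KO, and with centring Nectin2 gave -0.22 (adjusted p = 0.265), a call also lost without any one of 4 arrays; in WT 0 of 8 passed by limma and 0 had an unadjusted p under 0.05. The class I genes H2-D1 and H2-K1 and their partner B2m were called higher in KO than in WT after sham surgery, but the 2 class I genes are read by probe sets of the cross-binding class. Other H2-D1 probe sets split after the same operation. Some were called higher in KO, up to 1.52 on the log2 scale for a probe set outside that class. Others were called lower, down to -7.50.

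Markers of the cells that could carry these genes moved with CLP as well. The summed signal of 12 NK markers, 6 of them among the 10 genes, was 771 to 1043 on KO CLP arrays and 716 to 993 on KO sham arrays, and 792 to 1081 on WT CLP arrays and 724 to 854 on WT sham arrays, with overlap in both genotypes. Gzma made up most of this sum. Its mean was 540 on KO CLP, 445 on KO sham, 561 on WT CLP and 456 on WT sham arrays. Mean sums were 935, 809, 918 and 783 in the same order. Of 7 NK markers tested, 1 rose and 1 fell in KO, and 0 were called in WT. For 14 T cell markers the sum was 1254 to 1646 on KO CLP arrays and 589 to 846 on KO sham arrays, and 981 to 1184 on WT CLP arrays and 675 to 851 on WT sham arrays, without overlap in either genotype. Of 11 T cell markers tested, 4 rose in KO, among them the receptor chain Cd3d (1.63), and Cd3d alone rose in WT (1.24). Cd3e, which defines T cells, read 58.7 to 85.6 on KO CLP arrays, 13.4 to 72.6 on KO sham arrays, 53.7 to 92.7 on WT CLP arrays and 35.8 to 82.0 on WT sham arrays. Of 8 pan-leukocyte markers 7 rose in KO and 1 in WT, but all 8 had an unadjusted p under 0.05 in both genotypes, the medians were 0.94 in KO and 0.90 in WT, and the interaction called 0 of 8 (1 at an unadjusted p under 0.05; limma). Mature neutrophil markers rose for 10 of 12 genes in each genotype. Of 8 monocyte markers 4 rose and 1 fell in KO and 0 were called in WT (1 at an unadjusted p under 0.05), with sums of 10542 to 13317 on KO CLP arrays and 4755 to 10978 on KO sham arrays, and 5710 to 5785 on WT CLP arrays and 4356 to 4664 on WT sham arrays. Dendritic cell markers rose for 2 of 3 genes in KO and for 0 in WT, with sums of 321 to 521 on KO CLP arrays and 245 to 284 on KO sham arrays, and 299 to 314 on WT CLP arrays and 296 to 351 on WT sham arrays. In KO 2 of 8 alveolar macrophage markers rose and 5 of 9 endothelial markers fell, and in WT 0 of either list were called, with 0 at an unadjusted p under 0.05 (limma). The part of such shifts in the rise of Gzmb and in the responses of Klra17 and Klrd1 was not tested.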

How the data were processed

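The authors deposited linear intensity values, 1 per probe set and array; per the submitters' processing notes GCOS, MAS5 and Affymetrix Expression Console were used, with versions not given in the sources used here. Each array's mean signal after trimming 2% at each end was 150, so the deposited intensities had been scaled to that target. From these values log2(signal + 3.47) was computed, the pseudocount being 10% of the median of the array medians (34.7); fold changes are on that scale and understate changes of dim genes. Of 45037 probe sets without controls, 34945 have 1 symbol, 932 several and 9160 none in the platform annotation, and 34741 of the single symbols matched RefSeq (GRCm38.p6). Each gene is represented by its brightest probe set (mean log2 signal over all arrays). The 24574 probe sets that passed the filter (signal above the median of 3 or more arrays) were fitted with limma 3.58.1 (R 4.3.3) as 4 group means with moderated variance that follows intensity, and a call is a Benjamini-Hochberg adjusted p under 0.05 over all of them; this test was also tried on simulated data. The number of arrays, 3 in each group, limits the precision.

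Genes were named by rule: all 10 members, and of each pathway list at most the 4 called genes with the smallest p plus any called against the majority; genes of the NK gene complex called between genotypes were named after their values were seen. Members and lists were chosen with earlier results of these data known. Alternatives changed the scaling, pseudocount, filter, variance model, probe set rule and groups in the fit, added a replicate block, or left out each array.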

Additional observations from a re-analysis of the deposited data

Results flagged for a closer look

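The response to CLP differed between KO and WT for 7 of the genes described, each read by its brightest probe set. Each was called by the limma interaction (KO response minus WT response, log2 scale, adjusted p under 0.05 over all probe sets). For Klra17 the difference was -2.36, with signals lower after CLP on all 3 KO arrays and higher on all 3 WT arrays than on the sham arrays of the same genotype. Lyst, the lysosomal trafficking regulator, differed by -0.909, having risen in WT. In the other direction Txk, a Tec family kinase of T and NK cells, differed by 1.95, the chemokine receptor Cxcr6 by 1.52, the ligand gene Pvr by 1.47, the transcription factor Ets1 by 0.75 and the regulator Id2 by 0.743. After sham surgery Txk (-0.92) and Id2 (-0.50) were already called lower in KO than in WT. When single arrays were left out, the call was lost in 10 of 12 runs for Ets1 and Cxcr6, 9 for Id2, 8 for Pvr, 7 for Klra17, 4 for Lyst and 1 for Txk. Under the other alternatives it was lost in 5 of 9 for Id2, 3 of 9 for Ets1 and 1 of 8 for Cxcr6. Of all genes tested, 4.98% were called in this comparison, a share that ranged from 0.557% to 15.2% without single arrays and from 1.79% to 26.7% under the other alternatives.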

How the results depend on the processing

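The alternatives changed both single calls and directions. Without single arrays, the differences of the 8 genes turned in sign in 28 recomputations, lost a call in 23 and gained one in 6. Under the other alternatives these counts were 11, 8 and 10. For CLP against sham in WT, 0 of 8 genes were called, and 2 with array weights or with only the 2 groups compared (0 to 2 without single arrays). In KO 2 were called, and 1 without a filter, with array weights or with only the 2 groups compared (1 to 3 without single arrays); with the replicate block it was 3, Klra17 being called (adjusted p = 0.0355). The interaction gave 1, and 0 to 1 without single arrays. For KO against WT after sham surgery 1 was called, 0 under the filter of 9 arrays, where 6 of the genes were tested, and 2 with the replicate block (1 to 2 without single arrays). After CLP 3 were called, and 1 to 4 without single arrays. There Gzmb was not called without a filter (adjusted p = 0.0593), without an intensity trend (0.0543) or with the replicate block (0.0566), and Klrd1 was called with array weights (0.0418) or only the 2 groups compared (0.0491). To look for pairing, the deviations of arrays from their group means were correlated between the groups compared. For arrays of the same replicate number r lay from -0.10 to 0.12, and for arrays of different numbers from -0.14 to 0.15. With 3 arrays in each group, these values cannot settle whether the numbers pair the arrays. Centring arrays on their medians moved the median of all probe sets in the KO response from -0.12 to 0.12 and the share of higher calls from 36.5% to 74.2%, with 37.2% against 63.3% for the interaction and 55.6% against 38.5% for KO against WT after sham surgery.

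Signs turned where the difference was small. For Klrg1 the KO response was 0.22 with quantile normalization or centring, the interaction -0.0104 with array weights, and KO minus WT after CLP 0.0263 with quantile normalization and 0.0217 with centring. For Gzma array weights gave -0.0836 for the interaction and 0.0722 for KO minus WT after sham surgery, and centring 0.00063 for KO minus WT after CLP. For Klrk1 the interaction was 0.0386 with centring and 0.0027 with the larger pseudocount. Averaging a gene's probe sets gave -0.12 for Prf1 (KO minus WT after CLP). The sign of H2-D1 turned from differences that were called: averaging gave -1.86 after sham surgery and -1.92 after CLP. Its representative probe set gave 0.77 and 0.67, and the probe sets of H2-D1 differed in sign. Without single arrays the WT response ranged from -0.0142 to 0.31 for Klrd1 and from -0.0741 to 0.19 for Prf1, and the KO response from -0.11 to 0.11 for Klrg1. On the same scale the interaction ranged from -0.285 to 0.0975 for Klrk1 and from -0.16 to 0.26 for Gzma. KO minus WT after sham surgery ranged from -0.32 to 0.10 for Gzma and from -0.0435 to 0.53 for Gzmb. After CLP KO minus WT ranged from -0.105 to 0.0176 for Klrg1, from -0.19 to 0.11 for Gzma, from -0.0863 to 0.19 for Prf1 and from -0.0594 to 0.20 for Nkg7. Calls of genes named from the lists were recomputed once per alternative: they were kept in 780 and lost in 90 of these recomputations other than leaving out an array, and kept in 890 and lost in 190 with single arrays left out, where fewer samples enter. The cause of the other changes was not tested.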
